A study of Mus musculus with 2 samples.

Results

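Retinoid binding and signaling genes were described in single cells of mouse small cell lung cancer (SCLC). The group has 9 members among the 27998 genes in the deposited count tables: Crabp1, Crabp2, Rara, Rarb, Rarg, Rxra, Ttr, Stra6 and Dhrs3. The members were chosen by name with earlier results of these same counts known, and Crabp1 and Crabp2 were selected on their UMI levels by tumor and cell cluster, where they marked cells of different tumors. Levels by tumor and by cluster are therefore given as descriptions, and no p-value is given, because each tumor is 1 mouse and 1 library. Single-cell RNA sequencing was done on live (DAPI-negative) sorted cells of a lung tumor from each of 2 mice, here TKO1 and TKO2. Both mice were of mixed C57BL/6, 129/SVJ and 129/SvOla background and 8 to 9 months old, and the tumors were taken 7 months after induction with Adeno-CMV-cre. Both carry the same deletions, Rb-/-; Trp53-/-; Rbl2-/-, with a Rosa26 membrane-Tomato or membrane-GFP reporter allele, where the TKO1 label ends in stray characters and was read as the same genotype. The CMV promoter drives Cre in any lung cell the adenovirus enters, so the founding cell type is not fixed by the model, and there is no control tumor without the deletions.

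Vitamin A (retinol) reaches cells bound to retinol binding protein and transthyretin (Ttr), and Stra6 carries it across the membrane. Dehydrogenases oxidize retinol to retinal and retinal to retinoic acid, and Dhrs3 runs the first step backward. Inside the cell, retinoic acid is held by the binding proteins Crabp1 and Crabp2, where Crabp2 passes it to nuclear receptors and Crabp1 is linked to its breakdown by Cyp26 enzymes. The receptors Rara, Rarb and Rarg pair with retinoid X receptors such as Rxra on DNA. In the lung this pathway is known for its part in bud formation and alveolar growth.

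In the files' build, GRCm38, annotated with GENCODE M21, Crabp1 (ENSMUSG00000032291) lies at chr9:54764748-54773110 and Crabp2 (ENSMUSG00000004885) at chr3:87948666-87953376. Rara lies on chromosome 11, Rarb on 14, Rarg on 15, Rxra on 2, Ttr on 18, Stra6 on 9 and Dhrs3 on 4. RefSeq promoters of GRCm38.p6 matched 7 of the 9 members. Rarb is shown because its promoter holds the textbook retinoic acid response element, a direct repeat with a spacer of 5 bases (DR5), and Crabp1 because its level differed most between the tumors. The windows are the 250 bases before the start site, 5′ to 3′ on the gene's strand, at chr14:16575477-16575726 (minus strand) for Rarb and chr9:54764498-54764747 (plus strand) for Crabp1. Capitals mark the DR5 match in Rarb and GC boxes (GGGCGG, on either strand) in Crabp1.
Rarb: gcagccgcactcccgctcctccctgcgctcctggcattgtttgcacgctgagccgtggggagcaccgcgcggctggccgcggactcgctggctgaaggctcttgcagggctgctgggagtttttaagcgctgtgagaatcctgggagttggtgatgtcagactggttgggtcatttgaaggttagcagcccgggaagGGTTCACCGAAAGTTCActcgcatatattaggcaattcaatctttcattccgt
Crabp1: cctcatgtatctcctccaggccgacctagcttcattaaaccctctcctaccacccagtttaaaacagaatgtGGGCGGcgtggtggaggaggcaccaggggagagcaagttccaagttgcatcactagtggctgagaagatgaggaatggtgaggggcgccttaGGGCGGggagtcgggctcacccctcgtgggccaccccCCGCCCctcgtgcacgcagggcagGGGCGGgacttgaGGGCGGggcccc
The DR5 match ended 37 bases before the start site, and 0.0883% of 32851 promoter windows of this length held such a match on either strand. Crabp1 had 5 GC boxes and no DR5, DR1 or DR2 match, while 32.7% of windows held at least 1 GC box. These are matches of letters, and binding was not measured.

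The tables hold 4514 cell barcodes for TKO1 and 3816 for TKO2, of which 3193 and 3568 had more than 500 detected genes and were retained, at a median of 1223 and 1960 unique molecular identifiers (UMIs) per cell. Clusters were made without the members, and those named neuroendocrine-like from fixed markers held 2606 cells of TKO1 and 3384 of TKO2. All 15 neuroendocrine markers were detected in both, with a summed level of 21992 and 1890 CPM (UMIs of a gene scaled to a total of 1000000 UMIs over the cells summed). Calca alone had 15980 and 18.6 CPM. The markers did not all go that way, and Grp (4.81 and 96.5 CPM), Uchl1 (282 and 507) and Dll3 (59.8 and 101) were higher in TKO2. Insm1 was close, at 125 and 119 CPM, and the rest of the list was higher in TKO1. TKO1 also held 98 macrophage-like and 105 club-like cells and TKO2 121 macrophage-like cells. In each tumor 1 cluster with raised neuroendocrine markers stayed unnamed because it also carried listed markers of another cell type. The neuroendocrine-like cells of TKO1 include a cluster of 426 cells with 12 neuroendocrine markers raised over immune-like cells and Calca at 15987 CPM, but led by Fam183b and Cfap126, genes of cilia. Without it the log2 ratios between tumors given below would be 7.55 for Crabp1 and -6.02 for Crabp2, and no member's ratio changed direction. The deleted genes Rb1, Trp53 and Rbl2 still had 80.9, 45.7 and 8.28 CPM in TKO1 and 15.2, 63.4 and 1.80 CPM in TKO2. Since the counts do not tell exons apart, they cannot check the deletions. The retained cells of both tumors shared 11 barcodes. All intervals below are 95% exact intervals and cover counting error only, and ratios between tumors rest on 1 library each. Over 12805 genes the median log2 ratio of TKO1 over TKO2 was 0.35, with ribosomal protein genes at 10.8% of UMIs in TKO1 and 23.1% in TKO2.

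The retinoic acid binding proteins were split between the tumors. In neuroendocrine-like cells, Crabp1 counted 156 UMIs in TKO1, or 41.7 CPM (35.4 to 48.7), and 2 UMIs in TKO2, or 0.258 CPM (0.0312 to 0.931). Crabp2 had the opposite pattern, with 2 UMIs or 0.534 CPM (0.0647 to 1.93) in TKO1 and 313 UMIs or 40.3 CPM (36.0 to 45.0) in TKO2. The log2 ratio of TKO1 over TKO2 was 7.34 (5.46 to 10.4) for Crabp1 and -6.24 (-9.29 to -4.37) for Crabp2, or 162-fold and 75.5-fold in opposite directions, with intervals that leave room because the low tumor had 2 UMIs each time. Each tumor thus held a single cellular retinoic acid binding protein at a readily counted level.

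The member receptors were sparse in both tumors, at under 10 CPM each, while Rxrb, a retinoid X receptor outside the member list, had 22.7 CPM in TKO1 and 26.4 CPM in TKO2. Rara, the most widely expressed retinoic acid receptor in most tissues, had 37 UMIs (9.88 CPM, 6.96 to 13.6) in TKO1 and 66 UMIs (8.50 CPM, 6.58 to 10.8) in TKO2. Its log2 ratio was 0.22 (-0.41 to 0.82), and a change of 2-fold lies outside that interval. Rxra, the shared partner, had 13 UMIs in each tumor, or 3.47 CPM (1.85 to 5.94) and 1.67 CPM (0.892 to 2.86), and the interval of its log2 ratio ran from -0.18 to 2.28. Rarb, the gene that carries the DR5 element shown above, had 3 UMIs in TKO1 and 15 in TKO2 (1.93 CPM, 1.08 to 3.19). Rarg had 6 UMIs (1.60 CPM) in TKO1 and 0 in TKO2, which is at least 4.15-fold higher in TKO1 against a floor of 3 UMIs over the group, before counting error in TKO1. The exact interval of its log2 ratio starts at 1.29. Rarb and Rarg were thus at the edge of detection, and the interval of the Rarb ratio included equality.

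Of the genes of transport and storage, Ttr, the carrier of thyroid hormone and of retinol binding protein, was higher in TKO1. It had 76 UMIs (20.3 CPM, 16.0 to 25.4) there and 39 UMIs (5.02 CPM, 3.57 to 6.87) in TKO2, a log2 ratio of 2.01 (1.44 to 2.61). Stra6, the retinol transporter, had 0 UMIs in TKO1, which allows up to 3, and 9 UMIs in TKO2 (1.16 CPM, 0.530 to 2.20). Dhrs3, the retinal reductase, had 11 UMIs (2.94 CPM, 1.47 to 5.25) in TKO1 and 4 (0.515 CPM, 0.140 to 1.32) in TKO2. Of the 7 members with at least 10 UMIs over both tumors, 4 (Crabp1, Rxra, Ttr and Dhrs3) were 2-fold or more higher in TKO1, where 30.4% of all tested genes were, and 2 (Crabp2 and Rarb) were so in TKO2, where 12.3% of genes were. Since this contrast chose the members, the counts are not read further. Rxra fell under 2-fold once ratios were taken relative to the median of all genes.

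**Figure D1:**
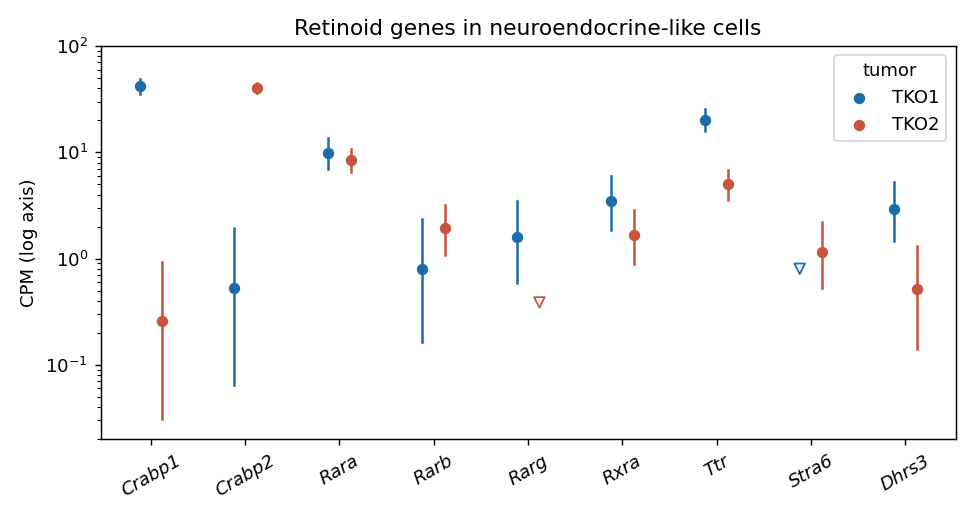
CPM (log axis) of each member in the neuroendocrine-like cells of TKO1 and TKO2; points are values, lines are 95% exact Poisson intervals, and an open triangle marks the floor of 3 UMIs where the count was 0. Crabp1 stands at 41.7 CPM in TKO1 and 0.258 in TKO2, Crabp2 at 0.534 and 40.3, while the Rara points at 9.88 and 8.50 overlap.

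Within a tumor, a UMI of the binding proteins was found in a small share of cells. The mean per thinned neuroendocrine-like cell was only 0.0381 UMIs for Crabp1 in TKO1 and 0.0347 for Crabp2 in TKO2. Such shares depend on depth and do not give the share of cells that express the gene. At 1000 UMIs per cell, 3.23% (2.49 to 4.13) of the TKO1 neuroendocrine-like cells had a Crabp1 UMI and 2.81% (2.25 to 3.47) of the TKO2 cells had a Crabp2 UMI, and without thinning the shares were 4.22% and 5.67%. In macrophage-like cells thinned the same way, 0 of 82 cells of TKO1 had a Crabp1 UMI, with an interval up to 4.40%. In those of TKO2, 1 of 112 cells had a Crabp2 UMI (0.893%, 0.0226 to 4.87). Both intervals include the share in neuroendocrine-like cells of the same tumor. The median depths of the neuroendocrine-like and macrophage-like cells were 1229 and 1314 UMIs in TKO1 and 1983 and 1639 in TKO2. Crabp1 reached 4 UMIs in a single cell and Crabp2 reached 6, with 11 and 33 cells at 3 or more. The Fano factor, the variance of a gene's UMIs over cells divided by its mean, was 1.32 for Crabp1, where genes of similar mean had a median of 1.15, and 1.44 for Crabp2 against 1.08. Their marking of cell groups was used to choose them, so these values are a description.

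In TKO1, Crabp1 was highest in a cluster led by Clspn and 2810417H13Rik (the PCNA-associated factor Pclaf), both genes of DNA replication. That cluster of 174 cells had 70 Crabp1 UMIs, or 228 CPM (178 to 288). Crabp1 was among its 3 leading genes. It had been left out of the clustering, but it was chosen on its levels by cluster in these same counts, so this rank is a description. The mitotic cluster led by Ube2c, Ccnb2 and Birc5 followed with 71.7 CPM (51.9 to 96.5), and the cluster led by Pipox, Atp10a and Adprhl1 with 54.8 CPM (34.8 to 82.3), and the intervals of these last clusters overlap. The remaining neuroendocrine-like clusters had 16.0, 6.79, 1.87 and 0 CPM. The 0 belongs to the cluster led by the neurofilament genes Nefm and Nefl and by Neurog3, where 240 cells had no Crabp1 UMI and the interval reached 10.4 CPM. Clusters above the tumor mean (chosen after their levels were seen) held 33.7% of the neuroendocrine-like cells and 87.2% of their Crabp1 UMIs.

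In TKO2, Crabp2 was highest in 4 clusters that differ in cycling. It had 87.2 CPM (69.9 to 107) in the cluster led by Gm17249, Cdkn1c and Shisa8, 83.3 CPM (65.4 to 105) in that led by Bbs2, Fer1l6 and the DNA polymerase gene Pole, 60.8 CPM (48.4 to 75.4) in the mitotic cluster led by Ccnb1, Plk1 and Ube2c, and 55.9 CPM (34.1 to 86.3) in that led by Cartpt, Spp1 and Vtn. Each of these overlaps its neighbor in the order. A second mitotic cluster, led by Nusap1, Cenpf and Aim1, had 2.50 CPM (0.302 to 9.02) from 2 UMIs in 307 cells, well apart from the first. The other clusters had 35.8 (21.2 to 56.6), 12.6, 10.5 and 5.71 CPM. The interval of the first of these includes the tumor mean of 40.3 CPM and overlaps those of the Ccnb1 and Cartpt clusters, so no gap sets the 4 apart from it. The 4 clusters above the tumor mean, again chosen after their levels were seen, held 44.3% of cells and 84.7% of Crabp2 UMIs.

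Among members with at least 50 UMIs in a tumor, and with 5 CPM added to each level, 1 of 2 differed 4-fold or more between the highest and lowest neuroendocrine-like cluster in TKO1 (Crabp1, against 11.2% of all tested genes) and 1 of 2 in TKO2 (Crabp2, against 10.9%). Since Crabp1 and Crabp2 were chosen on their levels by cluster, these counts are not read further. The ratio with 5 CPM added was 2.47 for Rara in TKO2 and 3.83 for Ttr in TKO1. Rara ranged from 2.25 to 12.9 CPM, with overlapping intervals. Ttr ranged from 8.48 CPM (2.75 to 19.8) to 46.7 CPM (31.0 to 67.4), and these intervals do not overlap.

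**Figure D2:**
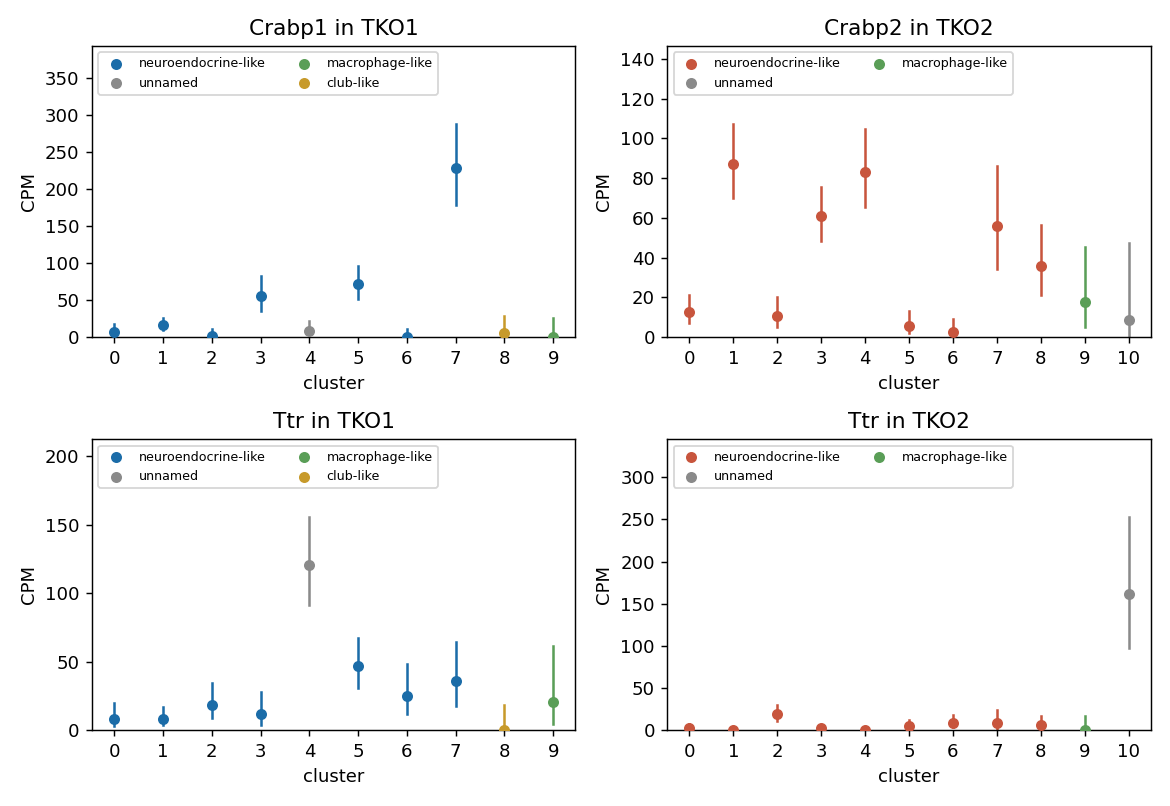
CPM of Crabp1 in TKO1, Crabp2 in TKO2 and Ttr in both, by cluster; points are values, lines are 95% exact Poisson intervals and colors give the cell type. Crabp1 peaks at 228 CPM in cluster 7 of TKO1, Crabp2 lies between 55.9 and 87.2 CPM in clusters 1, 3, 4 and 7 of TKO2, and Ttr is highest in the unnamed cluster of each tumor, at 120 and 162 CPM.

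The unnamed clusters held the highest Ttr of both tumors. In TKO1 the cluster of 384 cells led by Dusp26, Tspan8 and Rgs4 had 58 Ttr UMIs, or 120 CPM (91.5 to 156), a log2 ratio of 2.57 (2.05 to 3.08) over the neuroendocrine-like cells. It had all 15 neuroendocrine markers, at 32246 CPM, and stayed unnamed because the fibroblast marker Dcn was among its leading genes. Only 2 of the 6 fibroblast markers were detected in it, with a sum of 85.2 CPM. In the neuroendocrine-like cells 1 of the 6 was detected, at 7.21 CPM. In TKO2 the unnamed cluster of 63 cells, led by Scgb1a1, Scgb3a2 and Wfdc2, had 19 Ttr UMIs, or 162 CPM (97.5 to 253), against 5.02 CPM in the neuroendocrine-like cells. These cells carried Calca at 3911 CPM and club markers at 63948 CPM together. They shared 0 barcodes with TKO1, but only 0.308% of all retained TKO2 barcodes were shared, so a 0 among 63 cells is uninformative. They also held Aldh1a1 at 68.2 CPM (8 UMIs) and Aldh1a3 at 76.7 CPM (9 UMIs), against 0.386 CPM each in the neuroendocrine-like cells of TKO2, while Crabp1 had 0 UMIs and Crabp2 1 UMI. The part of club cell RNA in these values was not tested.

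Cycling state was read from the UMIs of 20 S phase and 20 G2/M genes after thinning to 1000 UMIs per cell. A cell was put in G2/M with at least 3 UMIs of that list, in S with at least 3 of the S list and fewer of the other, and in low with at most 1 of both. In TKO1, Crabp1 was higher in cycling cells, going from 5.68 CPM (1.84 to 13.3) in 880 low cells to 26.2 CPM in the 343 cells between the classes, 83.1 CPM (57.2 to 117) in 397 S cells and 87.5 CPM (57.2 to 128) in 297 G2/M cells. S cells were at a log2 ratio of 3.87 (2.50 to 5.59) over low cells and G2/M cells at 3.95 (2.54 to 5.68), or 14.6-fold and 15.4-fold. S and G2/M did not differ beyond their intervals. The low class rests on 5 Crabp1 UMIs, and 117 and 408 cells had 2 or 3 UMIs of the G2/M or S list, near the limit between classes. At 2000 UMIs per cell it kept 87 cells and 2 Crabp1 UMIs, and the S ratio was then 0.83 from 6 UMIs in 147 cells, while G2/M had 27 UMIs in 151 cells.

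Cells of the same cycling class differed in Crabp1 by cluster. S cells of the Clspn cluster had 242 CPM (155 to 361) from 24 UMIs in 99 cells, whereas 63 S cells of the cluster led by Nefm had 0, with an interval up to 58.6 CPM. In the mitotic cluster 245 G2/M cells had 65.3 CPM (37.3 to 106). The Clspn cluster gave 24 of the 33 Crabp1 UMIs of the S class. Only 8 low cells fell in it and 5 in the mitotic cluster, with 0 Crabp1 UMIs. In the cluster led by Pipox, S cells had 70.4 CPM (22.9 to 164) and low cells 21.3 CPM (2.58 to 76.9), and these intervals overlap. Cycling class and cluster can therefore not be told apart in the ratios over low cells given above.

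In TKO2, Crabp2 differed less between the cycling classes, and the classes of the tumors were not compared by a test. It had 19.96 CPM (9.97 to 35.7) in 551 low cells, 49.3 CPM in 527 cells between, 40.5 CPM (27.9 to 56.9) in 815 S cells and 31.0 CPM (21.6 to 43.1) in 1129 G2/M cells. The log2 ratio over low cells was 1.02 for S, with an interval from -7.74e-05 to 2.15, and 0.63 (-0.38 to 1.76) for G2/M. For the cells between the classes it was 1.31 (0.24 to 2.47), an interval that left out equality. Within the G2/M class the Nusap1 cluster stood apart from the Ccnb1 and Pole clusters. G2/M cells of the Nusap1 cluster had 0 Crabp2 UMIs in 281 cells (up to 13.1 CPM). Those of the Ccnb1 cluster had 38.8 CPM (21.2 to 65.1) in 361 cells and those of the Pole cluster 90.0 CPM (53.3 to 142) in 200 cells, and these intervals overlap. The cluster led by Speer4d, with 22.5 CPM (2.72 to 81.2) in 89 G2/M cells, overlaps all of them. That led by Hist2h2bb was also low, at 6.13 CPM (0.155 to 34.2) from 1 UMI in 163 G2/M cells. Its interval overlaps those of the Nusap1 and Ccnb1 clusters but not that of the Pole cluster. Low cells of the Cdkn1c cluster had 49.6 CPM (19.96 to 102) from 7 UMIs in 141 cells.

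Ttr had 10.2 CPM in low cells of TKO1, 22.7 in S and 30.3 in G2/M, with a log2 ratio of 1.15 (-0.36 to 2.66) for S and 1.57 (0.06 to 3.07) for G2/M. Of 3 members with enough UMIs in TKO1, 2 (Crabp1 and Ttr) were 2-fold or more higher in S than in low cells, against 7.45% of genes, and the same 2 in G2/M, against 10.0%. In TKO2 it was 1 of 3 for S (Crabp2, against 8.67%) and 0 of 2 for G2/M (against 10.0%). Crabp1 and Crabp2 were chosen on their levels by cluster, and the clusters differ in cycling, so these counts are not read further. The Crabp2 ratio for S lay just past 2-fold and fell under it with another thinning seed (log2 0.90) and at 2000 UMIs per cell (log2 0.49).

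**Figure D3:**
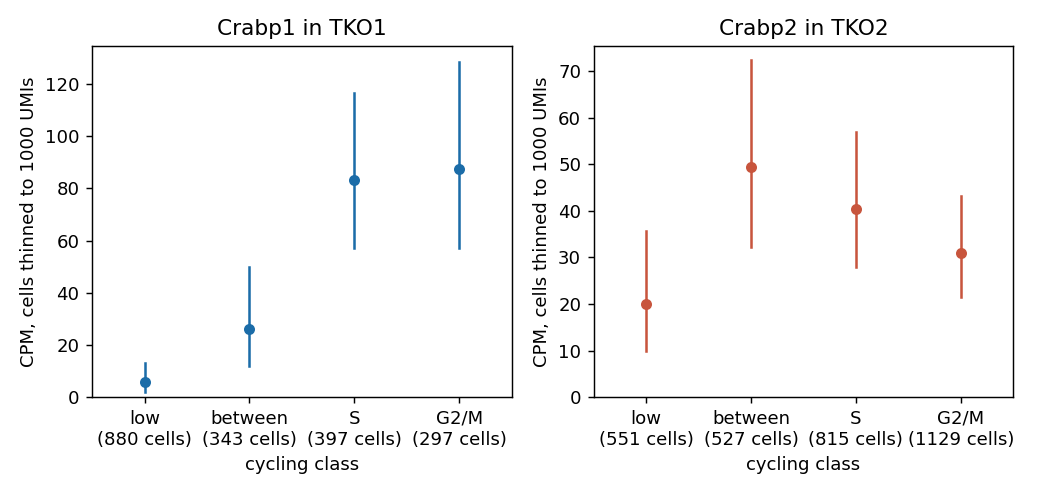
CPM of Crabp1 in TKO1 and Crabp2 in TKO2 by cycling class of cells thinned to 1000 UMIs; points are values and lines 95% exact Poisson intervals. Crabp1 goes from 5.68 CPM in low cells to 83.1 in S and 87.5 in G2/M, while the Crabp2 intervals overlap from 19.96 CPM in low cells to 31.0 in G2/M.

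Cells with Crabp1 carried more of both cycling lists. After thinning, 62 TKO1 cells with a Crabp1 UMI had log2 ratios over 1855 cells without of 1.09 (0.89 to 1.28) for the S list and 1.28 (1.09 to 1.46) for the G2/M list. The hypoxia list was lower in them, at -0.96 (-1.18 to -0.75), and the neuroendocrine list at -0.44 (-0.53 to -0.35). In TKO2, 85 cells with Crabp2 differed less, at 0.24 for the S list, -0.21 for the G2/M list and -0.04 (-0.24 to 0.14) for hypoxia. The neuroendocrine list stood at -0.37 (-0.63 to -0.12) in them. The macrophage markers summed to 0 UMIs in the 62 Crabp1 cells and to 1 UMI in the 85 Crabp2 cells.

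The genes most like each member were found by Pearson correlation over cells, without the minimum mean that had been set, since no member reached it; this was decided after their values were seen. Over 1917 cells and 3545 genes, Crabp1 was closest to 2810417H13Rik (r = 0.22), Pbk, Tubb5, Clspn, Stmn1, Ptma, Rrm2 and Dek, and farthest from Bsg, Aldoa and Bnip3. 2810417H13Rik had 1000 CPM in cells with Crabp1 and 193 CPM in the others, and Bnip3, a hypoxia gene, 371 against 1119 CPM. Crabp2 had only weak correlations over 3022 cells, up to 0.10 with Ppp1r14a, which at these counts are no finding. Over the 10 clusters of TKO2 that held neuroendocrine markers, Crabp2 was closest to Rpf2, Vstm2a and Car14 and most opposed to Samd1, the adhesion gene Epcam (r = -0.97) and Espn. Epcam went from 60.8 CPM in the cluster led by Bbs2 to 1146 CPM in the Nusap1 cluster, the reverse of Crabp2. The clusters are few and share 1 library, so these values describe TKO2 alone.

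Single cells with several members were rare at this depth. No retained cell of either tumor had both Crabp1 and Crabp2, but the product of their shares gives only 0.0720 such cells in TKO1 and 0.110 in TKO2. Crabp1 and Ttr met in 9 TKO1 neuroendocrine-like cells where the product of shares gives 2.45. After thinning there were 3 such cells against 0.841, and none of the 3 was in the low cycling class. Both genes were high in the Clspn and Ube2c clusters, and co-detection within clusters was not tested. Crabp2 and Rara met in 5 TKO2 cells against 3.29, and Crabp2 and Stra6 in 3 against 0.511. After thinning these were 1 cell against 0.619 and 0 against 0.0844. Other pairs, without thinning, lay on either side of the product. Crabp1 and Rara met in 1 TKO1 cell against 1.48. In TKO2, Crabp2 and Rxra met in 0 cells against 0.738, and Crabp2 and Rarb in 2 against 0.794. In all, 13 of 2606 neuroendocrine-like cells of TKO1 and 14 of 3384 of TKO2 had 2 or more members. Most cells with Crabp1 or Crabp2 therefore had no UMI of a member receptor, which at these counts does not show that the receptor was absent. Rxrb, outside the member list, was not part of these counts.

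Dhrs3 was higher in macrophage-like cells of both tumors than in the tumor cells, and Rara and Rxra were so in TKO1. Dhrs3 had 119 CPM (69.2 to 190) in macrophage-like cells of TKO1 and 97.7 CPM (61.2 to 148) in those of TKO2, a log2 ratio over neuroendocrine-like cells of the same tumor of 5.34 (4.16 to 6.58) and 7.57 (6.01 to 9.56). It had 91.5 CPM (54.2 to 145) in club-like cells of TKO1, which did not differ from macrophage-like cells beyond the intervals. After thinning, 13.4% of TKO1 and 10.7% of TKO2 macrophage-like cells had a Dhrs3 UMI. Among neuroendocrine-like cells it was 0.313% in TKO1 and 0 of 3022 in TKO2, with an interval up to 0.122%. Macrophage markers, 12 of 12 detected, summed to 40576 and 36153 CPM in the macrophage-like cells and to 39.2 and 13.4 CPM in the neuroendocrine-like cells. In the other direction, neuroendocrine markers summed to 4461 CPM in the macrophage-like cells of TKO1 and 666 CPM in those of TKO2, against 21992 and 1890 CPM in neuroendocrine-like cells.

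Rara had 83.9 CPM (43.4 to 147) in macrophage-like cells of TKO1, a log2 ratio of 3.09 (2.01 to 4.06), but 17.8 CPM (4.84 to 45.5) in those of TKO2, at 1.06 (-0.86 to 2.49). Rxra had 69.9 CPM (33.5 to 129) and 8.88 CPM (1.08 to 32.1), from 10 and 2 UMIs. The higher receptor levels in macrophage-like cells are thus shown by the intervals in TKO1 only, and the difference between tumors was not tested. They were not particular to macrophage-like cells. Club-like cells of TKO1 had Rara at 40.7 CPM from 8 UMIs, a log2 ratio over neuroendocrine-like cells of 2.04 (0.73 to 3.17). Rxra had 20.3 CPM in them from 4 UMIs, at 2.55 (0.48 to 4.25). Of the members with at least 10 UMIs, 3 of 5 were 2-fold or more higher in macrophage-like than in neuroendocrine-like cells in TKO1, against 26.4% of genes, and 4 of 6 in TKO2 (Dhrs3, Rara, Rarb and Rxra), against 29.0%. Of these 4, only Dhrs3 had an interval that left out equality, and Rara, Rarb and Rxra rest on 4, 2 and 2 macrophage-like UMIs. Crabp1 had 0 macrophage-like UMIs and Crabp2 had 4 (17.8 CPM, 4.84 to 45.5), beside the neuroendocrine marker level just given for the same cells, and the part of tumor cell RNA in these UMIs was not tested.

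**Figure D4:**
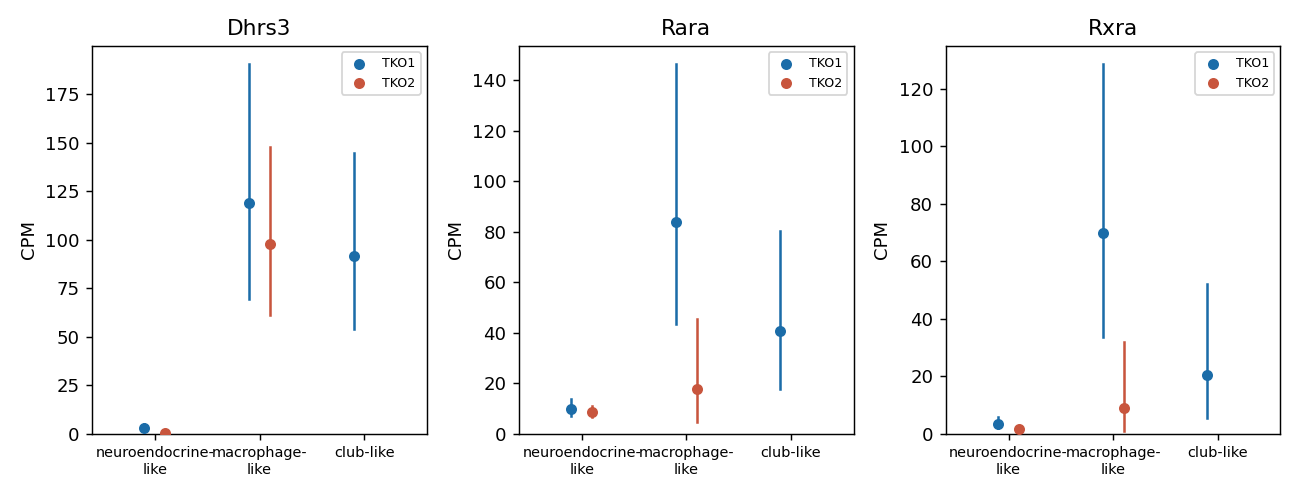
CPM of Dhrs3, Rara and Rxra by cell type in TKO1 and TKO2; points are values, lines are 95% exact Poisson intervals, and TKO2 had no club-like cluster. Dhrs3 stands at 119 and 97.7 CPM in macrophage-like cells and at 2.94 and 0.515 CPM in neuroendocrine-like cells.

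The rest of the pathway, 56 genes listed by role, held genes higher in either tumor. Of 33 genes with at least 10 UMIs, 11 were 2-fold or more higher in TKO1 and 5 in TKO2, beside 30.4% and 12.3% of all genes, and the median log2 ratio was 0.34 where that of all genes was 0.35. With TMM factors the split was 8 and 6, and the median log2 ratio was -0.0045 where that of all genes was 0.0059. The shares above are for ratios without these factors, so this split is not set against them.

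The enzymes that make retinoic acid showed the widest differences. Aldh1a1 had 24.6 CPM in TKO1 and 0.386 in TKO2, and Aldh1a3 had 48.3 and 0.386 CPM, with log2 ratios of 5.99 (4.40 to 8.29) and 6.97 (5.40 to 9.26). Aldh1a2 had the reverse, 0.534 CPM in TKO1 and 5.67 CPM in TKO2 (log2 -3.41, -6.50 to -1.47). Aldh1a7, placed in the same list as a related gene, was alike, at 65.4 and 59.8 CPM. Whether it makes retinoic acid was not tested. The Cyp26 enzymes that break retinoic acid down, Cyp26a1, Cyp26b1 and Cyp26c1, were at 0 UMIs in neuroendocrine-like cells of either tumor, which allows up to 3 UMIs each.

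Among carriers, Fabp5, which can also bring retinoic acid to a nuclear receptor, had 62.7 CPM in TKO1 and 382 CPM in TKO2 (log2 -2.61, -2.80 to -2.41). Within TKO2 it was highest, at 535 CPM, in the Cdkn1c cluster, which also had the highest Crabp2. Rbp4, the plasma retinol carrier, had 261 and 241 CPM. Of the genes of the retinal steps, Dhrs7 had 118 and 5.41 CPM and Adh5 105 and 254 CPM. Lrat, which stores retinol as esters, had 0 UMIs in both.

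Of the 9 coregulators, all tested, 5 were 2-fold or more higher in TKO1, beside 30.4% of all genes, and 0 in TKO2, beside 12.3%. With TMM factors the counts were 3 and 0, which are not set against these shares because the shares are for ratios without the factors. The coactivators Ep300 and Ncoa3 were among the 5, at 29.6 and 10.3 CPM and at 12.3 and 4.12 CPM, while the corepressor Ncor1 had 285 and 225 CPM. Among genes known as retinoic acid targets, Hoxb2 had 256 and 90.6 CPM and Hoxb5 262 and 176 CPM, while Hoxb1, Cdx1 and Stra8 had 0 in both. Meis1 had 0 UMIs in TKO1 and 58 in TKO2 (7.47 CPM), at least 9.33-fold higher in TKO2 against the floor before counting error in TKO2, and the exact interval of its log2 ratio of TKO1 over TKO2 ends at -2.88. Over the neuroendocrine-like clusters of TKO2, Hoxb2 was lowest in the Cdkn1c cluster at 48.6 CPM and highest in the Nusap1 cluster at 149 CPM. These clusters had the highest and lowest Crabp2. Over the same clusters the Pearson correlation with Crabp2 was -0.70 for Hoxb2, -0.77 for Hoxb5 and -0.56 for Hoxb4. It was -0.16 for Meis2 and 0.69 for Meis1, so the tested targets did not share 1 direction.

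**Figure D5:**
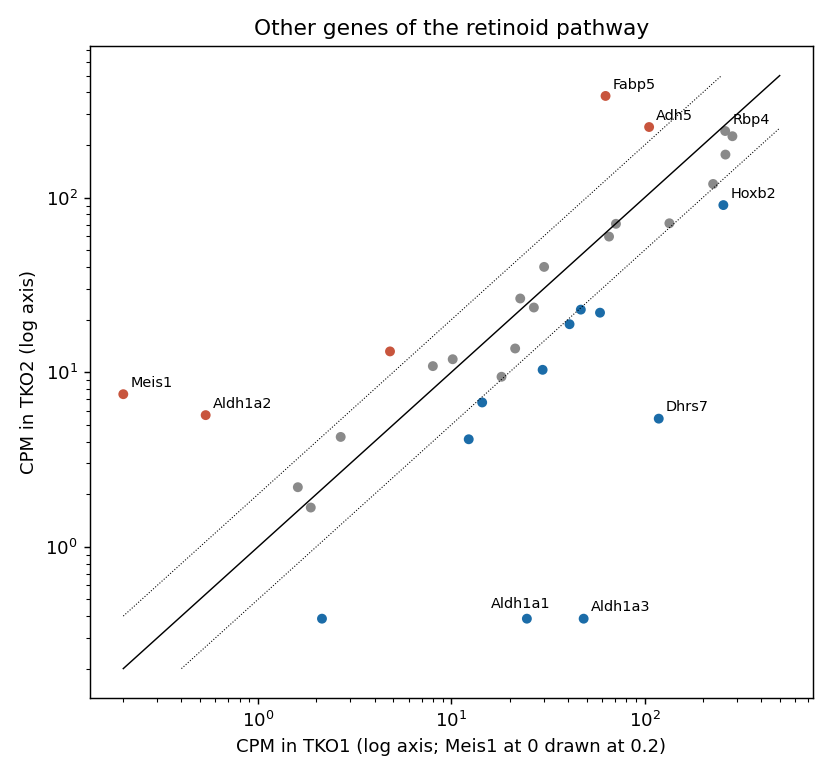
CPM (both axes log) in neuroendocrine-like cells of TKO1 and TKO2 for the 33 other pathway genes with at least 10 UMIs; the solid line marks equal levels and dotted lines 2-fold, blue is at least 2-fold higher in TKO1, red in TKO2 and gray neither, and Meis1, at 0 in TKO1, is drawn at the left edge. Aldh1a1 and Aldh1a3 lie far on the TKO1 side and Meis1, Aldh1a2 and Fabp5 on the TKO2 side.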

How the data were processed

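For each tumor the authors deposited 1 matrix of raw UMI counts, without any scaling, and the submitters' processing notes name Cell Ranger, Seurat and mm10. Barcodes with more than 500 genes were kept. Each tumor was clustered in Seurat 5.3.0 (R 4.3.3; 1000 variable genes without members and pathway genes, 10 components, resolution 0.8). A type other than neuroendocrine needed 3 markers raised 4-fold or more over other cells, and neuroendocrine-like clusters needed 3 markers raised 2-fold or more over the immune-like ones. A cluster that met the neuroendocrine rule stayed unnamed if it also met that of another type outside the immune ones. It also stayed unnamed if its 10 leading genes held more listed markers of another type than neuroendocrine ones. Scrublet (scanpy 1.11.5) called 1 and 0 doublets, too few to be used; cells above its 95th percentile (112 and 133) were removed as an alternative. UMIs were summed per group, and CPM, exact Poisson, binomial and Clopper-Pearson intervals were computed with scipy 1.17.1. Shares and cycling classes used cells thinned to 1000 UMIs, which left out 689 and 362 neuroendocrine-like cells. TMM factors came from edgeR 4.0.16. The steps were tested on simulated data. Some listed genes are not reported here. The members and gene lists were chosen with earlier results of these data known. Named genes are members, listed genes, the 3 leading genes of a cluster and the genes most like a member (the 8 highest and 3 lowest correlations); a gene outside these was chosen after its values were seen.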

Additional observations from a re-analysis of the deposited data

Results flagged for a closer look

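The barcodes with at most 500 detected genes, which no comparison above uses, held member UMIs above the 3 UMIs that a count of 0 allows. In 1321 such barcodes of TKO1, Crabp1 had 25.1 CPM, Rara 27.8 CPM, Rarg 9.74 CPM, Rxra 5.57 CPM, Ttr 75.2 CPM and Dhrs3 36.2 CPM. In 248 such barcodes of TKO2, Crabp2 had 32.2 CPM. Crabp2 in TKO1 and Crabp1 in TKO2 had 0 UMIs in them, so the low barcodes showed the same binding protein as the retained cells of their tumor. What these barcodes hold was not tested.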

How the results depend on the processing

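No paired analysis was possible because each tumor has 1 library and no replicates. The log2 ratio of TKO1 over TKO2 ran from 6.99 to 7.94 for Crabp1 and from -6.69 to -5.15 for Crabp2 over 15 alternatives of scaling, filters, doublets and clustering; 3 of these, on the unnamed clusters, the cilium-led cluster of TKO1 and the shared barcodes, were chosen after seeing the data. Shares of cells moved with the depth of thinning: 1.88% at 500 and 6.29% at 2000 UMIs for Crabp1 in TKO1, and 1.51% and 6.24% for Crabp2 in TKO2. The ratio of the highest to the lowest cluster, with 5 CPM added, was 46.7 for Crabp1 and fell to 29.9 with members among the variable genes and 26.5 at resolution 0.4; for Crabp2 it was 12.3 and 8.83 at resolution 0.4. At 2000 UMIs per cell the log2 ratio over low cells was 0.83 for Crabp1 in S and -0.40 for Crabp2 in G2/M, from 2 and 5 UMIs in the low cells. Ttr in S was then at -0.76, from 3 UMIs in S and 0 in low cells, where the 0 was set at the floor of 3 UMIs. The ratio of Stra6 between tumors, with 0 UMIs in TKO1 set at the same floor, was 0.43 with more than 1000 genes. The signs of these 2 values come from the floor and give no direction, since the observed counts were higher in S and in TKO2. Depth limits Rarb, Rarg, Stra6 and all pairs of members.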
